A study of Mus musculus with 18 samples.

Results

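The genes described here encode machinery of mRNA decay, from the removal of the poly(A) tail to the destruction of the body of the transcript. The list held 45 genes, named by gene symbol with no threshold on a measured value, though it was drawn up with earlier results of these data known. Of these, 44 had an array row that carried their symbol alone, out of 19454 genes measured, and for a gene with several rows the brightest was used. All 44 passed the limit set on dim genes, a log2 intensity of 3.03 in the brightest group, which 10258 genes passed in all. Upf3b, a factor of nonsense-mediated decay, was the member with no such row and is not analysed here.

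RNA came from macrophages grown from C57Bl/6 bone marrow in medium with M-CSF, and was hybridised to 18 Affymetrix Mouse Gene ST 1.0 arrays. The cells were wild type (WT) or TTP-/-, which lack tristetraprolin, the RNA-binding protein that Zfp36 encodes. All cells had first received the bacterial product lipopolysaccharide (LPS) for 3 h. They were then given fresh medium with actinomycin D, a blocker of transcription, and with SB203580, which inhibits p38 kinase, for 0, 45 or 90 min, so that time without transcription and time with the inhibitor cannot be told apart. The 6 groups were WT at 0, 45 and 90 min and TTP-/- at 0, 45 and 90 min, with 3 arrays each. There were no cells without LPS and none treated without SB203580.

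Most mRNAs are degraded after deadenylases shorten their poly(A) tail. The CCR4-NOT complex does most of this work, after PAN2-PAN3 has trimmed long tails, and the exposed message is either decapped and digested from its 5′ end by XRN1 or digested from its 3′ end by the exosome. Tristetraprolin binds AU-rich elements in inflammatory mRNAs and brings CCR4-NOT to them. The genes below encode that complex and other decay factors, among them those of nonsense-mediated decay.

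Values are log2 intensities after RMA, the normalisation that gives all arrays the same distribution of signals. Each change is therefore a change against the bulk of the other mRNAs, and a loss shared by all of them would not be seen. In these bulk samples, fewer cells of a type and less RNA per cell cannot be told apart. Values on the arrays are given in the order replicate 1, 2 and 3, fold changes are log2 differences ± SE, and a gene is said to have risen or fallen where limma gave a Benjamini-Hochberg adjusted p below 0.05 over all genes tested. Levels of different genes cannot be compared, since each row has its own probes.

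The arrays carried median intensities of 7.41 to 8.19 on the linear scale. Zfp36 itself stood at 7.95, 7.86 and 7.12 in WT and at 6.25, 6.75 and 6.81 in TTP-/- at 0 min, a separation of the groups that did not pass the test (-1.04 ± 0.32, adjusted p = 0.564, limma). At the later times the order was the other way on every array, with 4.86, 4.93 and 4.47 in WT and 5.58, 5.11 and 5.36 in TTP-/- at 45 min (0.59 ± 0.32), and 4.11, 4.10 and 4.15 in WT and 4.58, 5.97 and 4.42 in TTP-/- at 90 min (0.87 ± 0.32, adjusted p = 0.673). The labels do not state which part of the gene the probes cover, so this row does not settle the genotype, and TTP-/- stands below for the arrays labelled so. The macrophage markers fixed for the check were well represented, with 9 of 10 measured and all 9 above the dim limit. Their summed intensity ran from 9378 to 12697 in WT and from 10272 to 13203 in TTP-/-. None of the neutrophil, T cell, B cell, erythroid or mast cell markers measured passed that limit, while 1 of 4 dendritic cell markers did (Zbtb46, mean log2 intensity 3.23). Of the fibroblast markers 3 of 6 passed, with summed intensities of 45.6 to 62.6 in WT and 45.4 to 61.3 in TTP-/-. Replicate 3 of every group has lower sample numbers in its title than replicates 1 and 2, and the arrays divide by that number on the first principal component, so results are also given with these 2 series of numbers as a block.

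The WT array of replicate 3 at 0 min stood apart from its group. It deviated from the mean of replicates 1 and 2 by 0.5 or more in 18 of the 44 decay genes, beside 35.4% of all genes tested. Across the 44 genes its median deviation was 0.36, with 33 above 0, beside a median of 0.11 over all genes. The WT array of replicate 2 at 90 min was the next, with deviations of that size in 15 of the 44 and in 30.3% of all genes. These arrays enter every comparison with WT at 0 min or at 90 min, and calls made without the first are given below.

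Over 90 min without transcription the log2 changes of the decay machinery were small, with 1 gene called. Averaged over both genotypes, the absolute log2 change of the 44 genes had a median of 0.13 and a maximum of 0.52, beside a median of 0.11 over all genes. Of the 44, 43 moved by less than 0.5, as did 95.5% of all genes. In 27 of the 44 the change was negative, as it was in 45.4% of all genes, and the median change was -0.07 beside 0.02. Within replicates 1 and 2 alone 19 of 44 were negative and the median was 0.06, so the direction over the list depended on replicate 3. There 2.11% of all genes were called higher in the average and 3.24% lower, beside 0.0585% and 2.28% with all arrays. Whether the turn was particular to the list, or to the roles counted below, was not tested. With all arrays only Edc3 passed the test in the average over both genotypes, as a fall, beside 2.34% of all genes called and 2.28% called as a fall. At an unadjusted p below 0.05 the average held 0 higher and 5 lower decay genes, beside 1.68% and 8.33% of all genes.

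The single comparisons with 0 min called no decay gene. In WT at 90 min limma called 0 of 44, beside 1.23% of all genes, with 0 higher and 4 lower at an unadjusted p below 0.05, beside 2.17% and 7.25%. In TTP-/- at 90 min it called 0 of 44, beside 0.224%, with 1 higher and 2 lower unadjusted, beside 1.56% and 3.8%. The WT comparison at 45 min called 0 of 44, beside 0.127%, with 1 higher and 0 lower unadjusted, beside 1.38% and 2.51%. The TTP-/- comparison at 45 min called 0 of 44, beside 0.0487%, with 0 higher and 5 lower, beside 1.4% and 3.86%. The WT counts depended on replicate 3 at 0 min. Without that array limma called 3 decay genes in WT at 45 min, beside 2.6% of all genes, 2.36% higher and 0.244% lower. All 3 were higher, Upf2 by 1.20 ± 0.25, Cnot7 by 0.69 ± 0.18 and Cnot1 by 0.56 ± 0.13. At 90 min, again without that array, limma called Upf2 and Cnot7, beside 2.89%. Within replicates 1 and 2 alone it called 2 in WT at 45 min (Upf2 and Xrn1), beside 2.5%, and 6 at 90 min, beside 13.4%.

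In TTP-/- 8 decay genes lay lower on every array at 45 min than at 0 min, and 0 lay higher, beside 7.89% and 5.27% of all genes. They were Cnot1, Cnot2, Cnot4, Dcp1a, Ddx6, Exosc3, Pan3 and Patl1, with changes from -0.54 ± 0.24 (Cnot4) to -0.27 ± 0.16 (Patl1). In WT at 45 min 1 lay higher, Pabpc1, and 0 lower, beside 3.28% and 6.67%. The groups at 90 and 0 min did not overlap for 3 decay genes in WT, Cnot8 and Edc3 lower and Pabpc1 higher. Over all genes tested 7.24% were separated lower there and 2.89% higher. In TTP-/- 5 did not overlap, with Ddx6, Exosc3 and Cnot1 lower and Edc4 and Lsm3 higher, beside 6.22% and 5.64%.

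**Figure D1:**
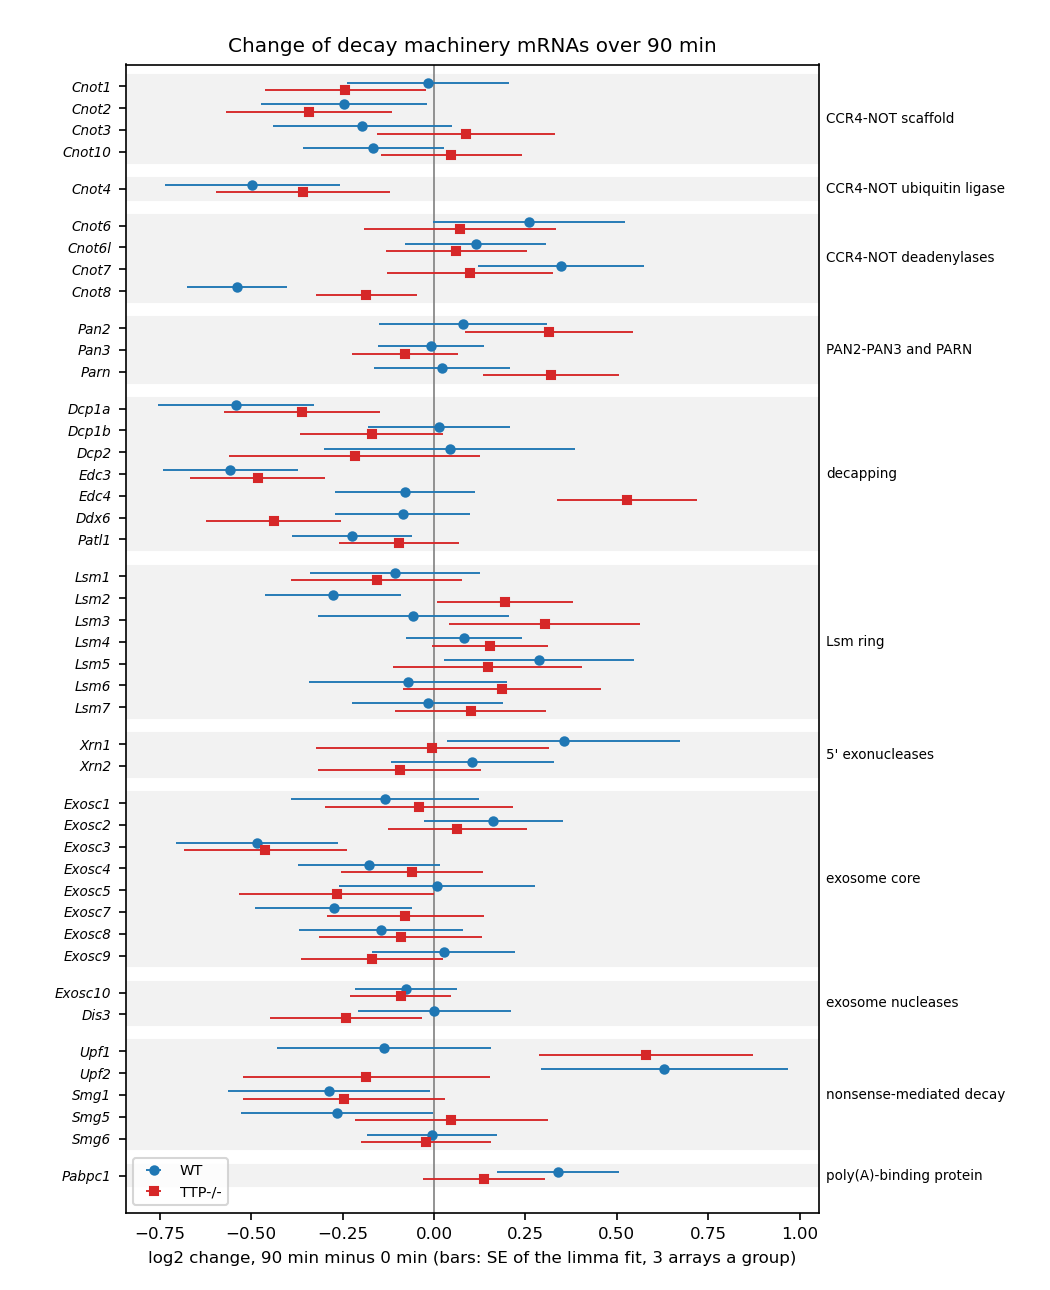
Log2 change from 0 to 90 min of the 44 decay genes, ordered by role, in WT (circles) and TTP-/- (squares); bars are SE of the limma fit with 3 arrays a group. Most intervals cross or lie near 0, Edc3, Dcp1a and Exosc3 lie to the left in both genotypes, and Cnot8 lies further left in WT (-0.54) than in TTP-/- (-0.18).

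Of the CCR4-NOT deadenylases, Cnot8 was higher in TTP-/- than in WT macrophages. Cnot8 and Cnot7 encode the CAF1-type deadenylases of the complex, with a single one in each complex, and Cnot6 and Cnot6l encode those of the CCR4 type. In WT, Cnot8 stood at 6.52, 6.27 and 6.52 at 0 min, at 6.42, 6.20 and 6.32 at 45 min, and at 5.91, 5.91 and 5.88 at 90 min. Cnot8 in TTP-/- stood at 6.80, 6.67 and 6.69, then at 6.70, 6.53 and 6.52, and at 90 min at 6.59, 6.70 and 6.32. The 3 TTP-/- arrays lay above the 3 WT arrays at each of the 3 times, and the 3 WT arrays at 90 min lay below every other array. Such a separation at all 3 times in the same direction was seen in no other of the 44 genes, and among all genes tested in 0.4% (higher) and 0.224% (lower).

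Averaged over the 3 times, Cnot8 was 0.40 ± 0.08 higher in TTP-/-, or 132% of WT (n = 9 arrays a genotype, adjusted p = 0.0169, limma). Same-numbered arrays of a genotype deviated together at several times, so the 9 arrays may not be independent and this SE may be too small. The blocks used below are shared by both genotypes and do not remove that limit. It was the 1 decay gene called in that comparison, beside 1.33% of all genes called and 0.877% called as higher. At an unadjusted p below 0.05 there were 3 higher and 3 lower, beside 6.42% and 5.18%. Over 45 and 90 min alone, a choice made after seeing the data, it was again the 1 called (0.45 ± 0.10, adjusted p = 0.0435, beside 0.634%). With the number series as a block the difference was again called (adjusted p = 0.00491, beside 4.82% of all genes), and within replicates 1 and 2 alone it was 0.46 ± 0.09 (adjusted p = 0.0120, beside 5.82%). The call held in 18 of 18 fits that left out a single array, with differences of 0.37 to 0.43. Centring each array on 12 housekeeping genes gave 0.36 ± 0.09 and no call (adjusted p = 0.0566).

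By time, the TTP-/- minus WT difference of Cnot8 was 0.28 ± 0.14 at 0 min, 0.27 ± 0.14 at 45 min and 0.64 ± 0.14 at 90 min. None of these single times passed (adjusted p = 0.659, 1.0 and 0.106), although with the replicate number as a block the 90 min difference did (adjusted p = 0.0302, beside 0.78% of all genes), as it did with the series as a block (adjusted p = 0.0273, beside 0.877%). Comparisons at 45 and at 90 min were added after the data were seen. Same-numbered pairs differed by 0.28, 0.40 and 0.17 at 0 min and by 0.68, 0.80 and 0.43 at 90 min. Since the groups did not overlap, any pairing of the arrays would give the same sign.

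The WT decline of Cnot8 over 90 min was -0.54 ± 0.14, which left 68.9% of the 0 min level and missed the threshold (adjusted p = 0.0707). It passed with the series as a block (adjusted p = 0.0344, beside 2.93% of all genes called). In TTP-/- the change was -0.18 ± 0.14, with 88.0% left. The difference between these changes was 0.35 ± 0.19 (unadjusted p = 0.0857, adjusted p = 0.999), positive in all 3 replicate numbers at 0.40, 0.39 and 0.26. The genotype thus differed in level, and a difference in the decline was not called.

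**Figure D2:**
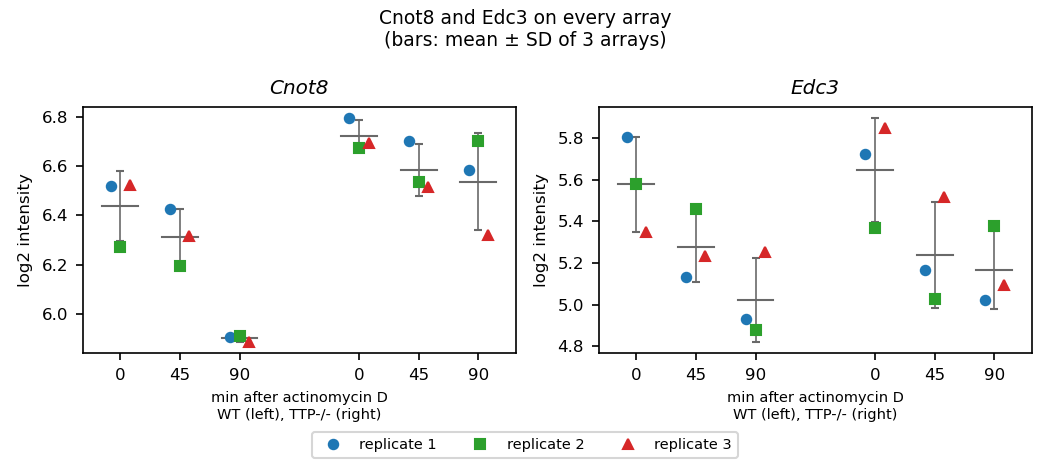
Log2 intensity of Cnot8 and Edc3 on each of the 18 arrays against minutes after actinomycin D, WT at the left and TTP-/- at the right of each panel; bars are the mean ± SD of 3 arrays, colours and shapes mark replicate numbers. The WT arrays of Cnot8 at 90 min lie at 5.88 to 5.91, below every other array, and Edc3 declines in both genotypes.

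Cnot7, the other CAF1-type enzyme, was not called in any comparison with all arrays weighted alike. It stood at 5.93, 6.01 and 6.97 in WT at 0 min and at 6.52, 6.74 and 6.69 at 90 min, with 6.48, 6.60 and 6.90 at 45 min. The TTP-/- values were 6.44, 6.47 and 6.76, then 6.18, 6.71 and 6.55, then 6.58, 6.73 and 6.66. Replicate 3 at 0 min was the highest of all WT values and the other arrays of that group the lowest, so the groups overlapped. The 90 min change was 0.35 ± 0.23 in WT and 0.10 ± 0.23 in TTP-/- (adjusted p = 0.749 and 1.0, limma). Without WT replicate 3 at 0 min the WT change was 0.68 ± 0.18 and was called (adjusted p = 0.0484, beside 2.89% of all genes).

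The CCR4-type enzymes showed the same lone array. Cnot6 stood at 5.58, 5.58 and 6.61 in WT at 0 min, at 6.46, 6.17 and 6.09 at 45 min and at 6.04, 6.52 and 5.99 at 90 min. Its TTP-/- values were 6.00, 6.42 and 6.37, then 6.30, 6.41 and 5.77, then 6.44, 6.54 and 6.01. Replicate 3 of WT at 0 min was thus above all others and the groups overlapped, with 90 min changes of 0.26 ± 0.26 in WT and 0.07 ± 0.26 in TTP-/-. Cnot6l was steadier, at 5.65, 5.80 and 6.10, then 6.00, 6.05 and 5.95, then 5.98, 6.24 and 5.67 in WT. Its TTP-/- values were 5.98, 6.02 and 5.75, then 6.16, 6.12 and 5.62, then 6.15, 6.11 and 5.66. All 6 Cnot6l groups overlapped, and its genotype difference over all times was 0.01 ± 0.11.

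The rest of CCR4-NOT showed no called change with all arrays weighted alike. Cnot1 encodes the scaffold on which the complex is built, Cnot2 and Cnot3 its regulatory module, Cnot10 a further core subunit, and Cnot4 a ubiquitin ligase that joins it. Averaged over the genotypes, the 90 min changes of all 4 scaffold and core genes were negative, from -0.29 ± 0.16 for Cnot2 to -0.05 ± 0.17 for Cnot3, but within replicates 1 and 2 only 2 of 4 were. Cnot2 stood at 4.73, 4.80 and 5.70, then 5.06, 4.90 and 5.13, then 4.72, 5.05 and 4.73 in WT, and at 5.13, 5.37 and 5.16, then 4.75, 4.90 and 4.54, then 5.0, 5.15 and 4.49 in TTP-/-. The WT groups overlapped because of replicate 3 at 0 min, and in TTP-/- the 45 min arrays all lay below those at 0 min.

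Cnot4 went from 5.04, 4.87 and 5.42 through 4.84, 5.18 and 4.80 to 4.54, 5.03 and 4.27 in WT. TTP-/- arrays went from 5.07, 5.37 and 5.19 through 4.75, 4.95 and 4.31 to 4.84, 5.28 and 4.43. Replicate 2 was the highest of its group at 90 min in both genotypes, and the groups overlapped with those at 0 min. The mean change over both genotypes was -0.43 ± 0.17 (adjusted p = 0.311, limma).

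Pan2, the catalytic subunit of PAN2-PAN3, and Parn, which encodes another poly(A)-specific ribonuclease, lay close to the dim limit, where changes are compressed by background. Pan2 read 3.72, 3.18 and 3.17, then 3.78, 3.88 and 3.48, then 3.69, 3.22 and 3.39 in WT, and 3.14, 3.55 and 3.63, then 3.90, 3.61 and 3.27, then 3.66, 4.18 and 3.41 in TTP-/-. Parn read 3.72, 4.24 and 4.18, then 3.99, 4.09 and 4.04, then 4.03, 4.16 and 4.01 in WT, and 3.85, 3.96 and 3.77, then 3.70, 4.39 and 3.94, then 4.45, 4.16 and 3.93 in TTP-/-. The groups of Pan2 and of Parn overlapped at all times. Their 90 min changes over both genotypes were 0.20 ± 0.16 and 0.17 ± 0.13, and that of Pan3, the partner of PAN2, was -0.04 ± 0.10.

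Among the decapping genes, Edc3 fell. Edc3 encodes an enhancer of decapping that links the decapping enzyme to the helicase DDX6 in P-bodies. In WT it read 5.80, 5.58 and 5.35 at 0 min, 5.13, 5.46 and 5.23 at 45 min and 4.93, 4.88 and 5.25 at 90 min. In TTP-/- it read 5.72, 5.37 and 5.85, then 5.17, 5.03 and 5.52, then 5.02, 5.38 and 5.09. The WT groups at 0 and 90 min did not overlap, while in TTP-/- replicate 2 at 90 min lay just above replicate 2 at 0 min.

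The mean 90 min change of Edc3 was -0.52 ± 0.13 (adjusted p = 0.0421, limma), which left 69.8% of the level at 0 min. It was -0.56 ± 0.18 in WT and -0.48 ± 0.18 in TTP-/-, neither called alone (adjusted p = 0.220 and 0.706), and the difference between the genotypes was 0.08 ± 0.26. The call held with the series as a block (adjusted p = 0.0195, beside 4.62% of all genes) and within replicates 1 and 2 (-0.57 ± 0.13, beside 5.34%). It held in 6 of 18 fits without a single array, with changes of -0.59 to -0.46 and adjusted p of 0.0276 to 0.131. Centring on ribosomal protein genes (adjusted p = 0.12) and a robust trended prior (adjusted p = 0.0531) also ended the call.

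The remaining decapping genes had mixed changes that did not pass. Over both genotypes, 6 of the 7 decapping genes were negative, with a median of -0.16 (5 of 7 within replicates 1 and 2). Dcp1a, an activator of the decapping enzyme, had -0.54 ± 0.21 in WT and -0.36 ± 0.21 in TTP-/- (adjusted p = 0.368 and 1.0), and its relative Dcp1b had -0.08 ± 0.14 on average. Ddx6, the P-body helicase, had -0.09 ± 0.18 in WT and -0.44 ± 0.18 in TTP-/-, and Patl1, a scaffold that binds DDX6 and the Lsm ring, had -0.16 ± 0.12 on average. Dcp2, the decapping enzyme itself, read 6.57, 6.61 and 6.87, then 6.98, 6.84 and 6.52, then 6.91, 7.18 and 6.09 in WT. In TTP-/- Dcp2 read 7.06, 7.37 and 6.44, then 7.12, 7.08 and 5.95, then 7.05, 7.06 and 6.12. Replicate 3 was the lowest array for Dcp2 in all groups but WT at 0 min, and all groups overlapped.

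Edc4, the scaffold that joins DCP1 and DCP2, was the decapping gene with a positive estimate. It read 4.79, 4.92 and 4.71, then 4.84, 4.91 and 4.52, then 4.83, 4.26 and 5.10 in WT. In TTP-/- it read 4.26, 4.52 and 4.68, then 4.83, 4.66 and 4.86, then 4.85, 5.05 and 5.15. The TTP-/- groups at 0 and 90 min did not overlap, whereas replicate 2 of WT at 90 min was the lowest of all. The changes were 0.53 ± 0.19 in TTP-/- and -0.08 ± 0.19 in WT (adjusted p = 0.615 and 0.973), and their difference, 0.61 ± 0.27, was not called (adjusted p = 0.999).

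The LSM1 to LSM7 ring binds shortened tails and promotes decapping, and all 7 of its genes had lower estimates in TTP-/- than in WT. Over all times the differences ran from -0.36 ± 0.15 for Lsm3 to -0.15 ± 0.11 for Lsm2, with a median of -0.20 beside 0.01 for all genes. No Lsm gene was called (adjusted p = 0.341 for Lsm3), but with the replicate number as a block Lsm3 was (adjusted p = 0.0335, beside 4.64% of all genes; 0.0510 with the series as a block). All 7 were negative in replicates 1 and 3 and 6 of 7 in replicate 2. Centring on ribosomal protein genes moved the median difference of all genes by 0.17 and left 5 of 7 negative, with a median of -0.04, below that shift.

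On the rows used, Lsm5 was the ring gene with the largest 90 min estimate. It read 3.92, 4.16 and 4.76, then 4.20, 4.28 and 4.72, then 4.43, 5.27 and 4.0 in WT, and 4.13, 4.07 and 4.10, then 4.09, 4.31 and 4.28, then 4.29, 4.10 and 4.35 in TTP-/-. The WT spread at 90 min came from replicate 2, and the groups overlapped. The mean change was 0.22 ± 0.18 (adjusted p = 0.877, limma).

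The exonucleases that digest from the 5′ end had unsteady WT values at 0 min. Xrn1, the cytoplasmic enzyme, read 4.94, 4.91 and 5.75, then 6.01, 5.75 and 5.59, then 5.58, 6.05 and 5.03 in WT. In TTP-/- it read 5.75, 6.14 and 5.50, then 5.95, 5.99 and 4.95, then 5.89, 6.14 and 5.35. Replicates 1 and 2 of WT at 0 min lay below every other array of Xrn1, and replicate 3 did not. The 90 min change was 0.36 ± 0.32 in WT and -0.00 ± 0.32 in TTP-/- with all arrays (adjusted p = 0.87 and 1.0). Within replicates 1 and 2 the WT change was 0.89 ± 0.20 (adjusted p = 0.00948, beside 13.4% of all genes) and the genotype difference at 0 min was 1.02 ± 0.20 (adjusted p = 0.00754, beside 9.17%).

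Xrn2, the nuclear relative that also acts in transcription termination, read 6.87, 6.91 and 7.75, then 7.51, 7.27 and 7.34, then 7.26, 7.62 and 6.97 in WT. Its TTP-/- values were 7.43, 7.69 and 7.40, then 7.20, 7.44 and 7.01, then 7.50, 7.58 and 7.16. Again replicates 1 and 2 of WT at 0 min were the lowest and replicate 3 the highest of all 18. The genotype difference over all times was 0.10 ± 0.13.

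The exosome is a ring of core subunits with the nucleases DIS3 and EXOSC10 attached. Over 90 min 7 of its 8 core genes were negative, with a median of -0.12, but within replicates 1 and 2 only 4 of 8 were. None was called with all arrays weighted alike and no block. Exosc3, a cap subunit that binds RNA, had the largest estimate. It read 3.23, 4.12 and 4.11, then 3.53, 3.49 and 4.08, then 3.23, 3.34 and 3.43 in WT, and 3.70, 3.94 and 3.84, then 3.34, 3.43 and 3.57, then 3.05, 3.45 and 3.59 in TTP-/-. In TTP-/- all arrays at 45 and 90 min lay below those at 0 min, while in WT replicate 1 at 0 min was as low as any. The mean change was -0.47 ± 0.16 (adjusted p = 0.172, limma), close to the dim limit. Without replicate 1 of WT at 0 min it was -0.62 ± 0.13 and was called (adjusted p = 0.0165, beside 2.54% of all genes). That was the only 1 of 18 fits without a single array to call it. Of 10 other settings 2 called it, among them the replicate number as a block (beside 4.37% of all genes).

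Between genotypes, 7 of the 8 core genes had lower estimates in TTP-/- over all times, with a median of -0.16. The lowest was Exosc5 at -0.29 ± 0.15 (adjusted p = 0.493). By replicate number, the direction was most marked in replicate 3, where 8 of 8 were negative with a median of -0.34, beside 3 of 8 in replicate 1 and 6 of 8 in replicate 2. Centring on ribosomal protein genes left 4 of 8 negative.

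Neither exosome nuclease was called in any comparison with all arrays weighted alike and no block. Dis3 read 5.13, 5.17 and 5.74, then 5.49, 5.62 and 5.46, then 5.32, 5.57 and 5.15 in WT, and 5.27, 5.46 and 5.07, then 4.92, 5.52 and 4.94, then 5.27, 5.09 and 4.72 in TTP-/-. Its groups overlapped, and the genotype difference over all times was -0.27 ± 0.12 (adjusted p = 0.4). Exosc10 read 6.44, 6.58 and 6.61, then 6.36, 6.55 and 6.47, then 6.33, 6.40 and 6.67 in WT. In TTP-/- Exosc10 read 6.28, 6.44 and 6.46, then 6.51, 6.43 and 6.61, then 6.46, 6.33 and 6.13. All its groups overlapped, with a mean 90 min change of -0.08 ± 0.10.

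Nonsense-mediated decay destroys mRNAs with premature stop codons. UPF1 is its helicase, UPF2 the partner that activates it, SMG1 the kinase that phosphorylates UPF1, and SMG5 and SMG6 act on phosphorylated UPF1, SMG6 by cutting the mRNA. All 5 genes measured had higher estimates in TTP-/- over all times, from 0.14 ± 0.10 for Smg6 to 0.42 ± 0.16 for Smg1, with a median of 0.24. Smg6 lay at the dim limit, with a mean log2 intensity of 3.06, and its WT means at 0 and 90 min (2.96 and 2.96) were below that limit. With all arrays weighted alike and no block none was called, except Smg1 after centring on ribosomal protein genes (0.58 ± 0.16, adjusted p = 0.0407, limma, beside 4.66% of all genes). That centring raised the TTP-/- minus WT difference of every gene alike, so estimates already positive stayed positive. All 5 were positive in replicates 1 and 2 and 4 of 5 in replicate 3, and 5 of 5 were so under both centrings and without WT replicate 3 at 0 min. Without that array 3.94% of all genes were called higher in TTP-/- over all times and 0.926% lower. Within replicates 1 and 2 these shares were 4.87% and 0.946%, so the genes at large leaned the same way.

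Smg1 read 5.32, 5.36 and 6.59, then 5.50, 5.63 and 5.77, then 5.30, 5.50 and 5.61 in WT. Smg1 in TTP-/- read 5.79, 6.21 and 6.65, then 5.92, 5.78 and 6.07, then 5.74, 6.00 and 6.18. The TTP-/- arrays lay above the WT arrays at 45 and at 90 min, and at 0 min WT replicate 3 alone reached the TTP-/- range. The difference over all times had an adjusted p of 0.274 in limma without a block, 0.0426 with the series and 0.0454 with the replicate number as a block. Without WT replicate 3 at 0 min it was 0.56 ± 0.11 (adjusted p = 0.0110, beside 4.86% of all genes called).

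Upf2 showed the widest gap between WT arrays at 0 min, at 3.37, 3.57 and 5.07. It then read 4.61, 4.80 and 4.59, and 4.48, 5.19 and 4.23 in WT, and 4.58, 5.0 and 5.04, then 4.60, 4.68 and 4.06, then 4.77, 4.65 and 4.64 in TTP-/-. Replicates 1 and 2 of WT at 0 min lay below all other arrays, and replicate 3 was among the highest. With all arrays the genotype difference at 0 min was 0.87 ± 0.34 (adjusted p = 0.655) and 0 of the 44 genes were called at 0 min by limma, beside 0.0% of all genes. The unadjusted counts there were 1 higher and 0 lower, beside 3.77% and 3.8%. Without replicate 3 of WT at 0 min the difference was 1.40 ± 0.25 (adjusted p = 0.00543, beside 7.95% of all genes called), and the WT 90 min change was 1.16 ± 0.25 (adjusted p = 0.0184). Cnot1, Ddx6 and Smg1 joined it at 0 min under that omission. Within replicates 1 and 2 the calls at 0 min were Cnot1, Dcp2, Smg1, Upf2, Xrn1 and Xrn2, all higher in TTP-/-. The genes at large leaned the same way at 0 min. Under the omission 7.19% of all genes were called higher in TTP-/- and 0.751% lower. Within replicates 1 and 2 these shares were 8.19% and 0.985%.

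The deviation of an array from its group mates went with the genomic length of the gene at 0 min, as a Spearman correlation over 10253 genes, which share the array and are not independent. It was 0.29 for replicate 3 of WT, -0.27 and -0.20 for replicates 1 and 2, whose group mates include replicate 3, and -0.23, 0.03 and 0.15 for the TTP-/- replicates. Cnot1 stood at 6.70, 6.73 and 7.85 in WT at 0 min beside 7.34, 7.42 and 7.65 in TTP-/-. Among the decay genes length and deviation did not always go together in replicate 3 of WT. The deviation was 1.60 for Upf2 (105 kb) and 1.14 for Cnot1 (89 kb). It was 1.03 for the short Exosc1 (10 kb) and 0.35 for the long Smg6 (239 kb). The part of gene length in the differences at 0 min was not tested.

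**Figure D3:**
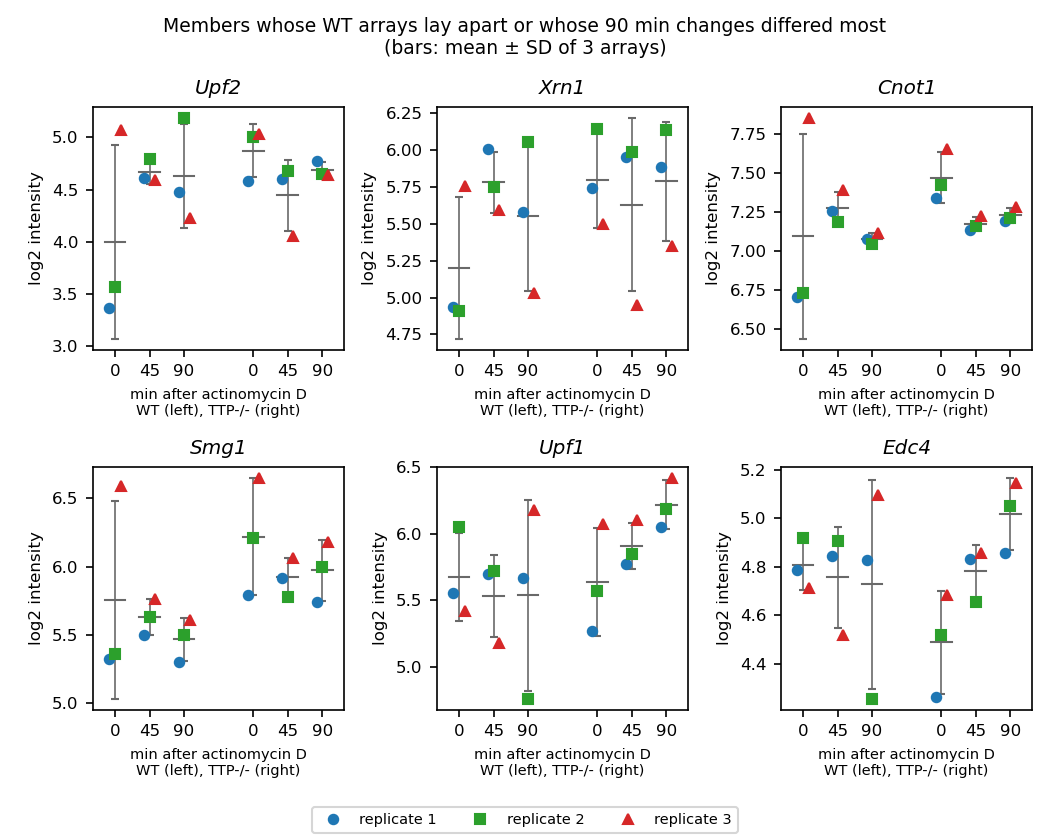
Log2 intensity on each of the 18 arrays of Upf2, Xrn1, Cnot1, Smg1, Upf1 and Edc4, WT at the left and TTP-/- at the right of each panel; bars are the mean ± SD of 3 arrays. Replicate 3 of WT at 0 min lies far above replicates 1 and 2 for Upf2, Xrn1, Cnot1 and Smg1, and replicate 2 of WT at 90 min is the lowest array for Upf1 (4.76) and Edc4 (4.26).

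Upf1 read 5.55, 6.05 and 5.42, then 5.70, 5.72 and 5.18, then 5.67, 4.76 and 6.18 in WT. Upf1 in TTP-/- read 5.27, 5.57 and 6.07, then 5.77, 5.85 and 6.10, then 6.05, 6.18 and 6.42. The TTP-/- arrays at 90 min were mostly above those at 0 min, with 1 array at each time overlapping, and WT at 90 min spread over the whole range. The 90 min change was 0.58 ± 0.29 in TTP-/- and -0.14 ± 0.29 in WT (adjusted p = 0.968 and 0.973, limma).

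Pabpc1 encodes the main cytoplasmic poly(A)-binding protein, which covers the tail that deadenylases remove. It read 10.47, 10.61 and 10.49, then 11.00, 11.03 and 10.69, then 10.98, 10.83 and 10.78 in WT, and 10.73, 11.00 and 10.58, then 10.96, 11.03 and 10.52, then 11.05, 10.97 and 10.70 in TTP-/-. In WT all arrays at 45 and 90 min lay above those at 0 min, and in TTP-/- the groups overlapped. The 90 min change was 0.34 ± 0.17 in WT and 0.14 ± 0.17 in TTP-/-, neither called (adjusted p = 0.566 and 1.0).

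**Figure D4:**
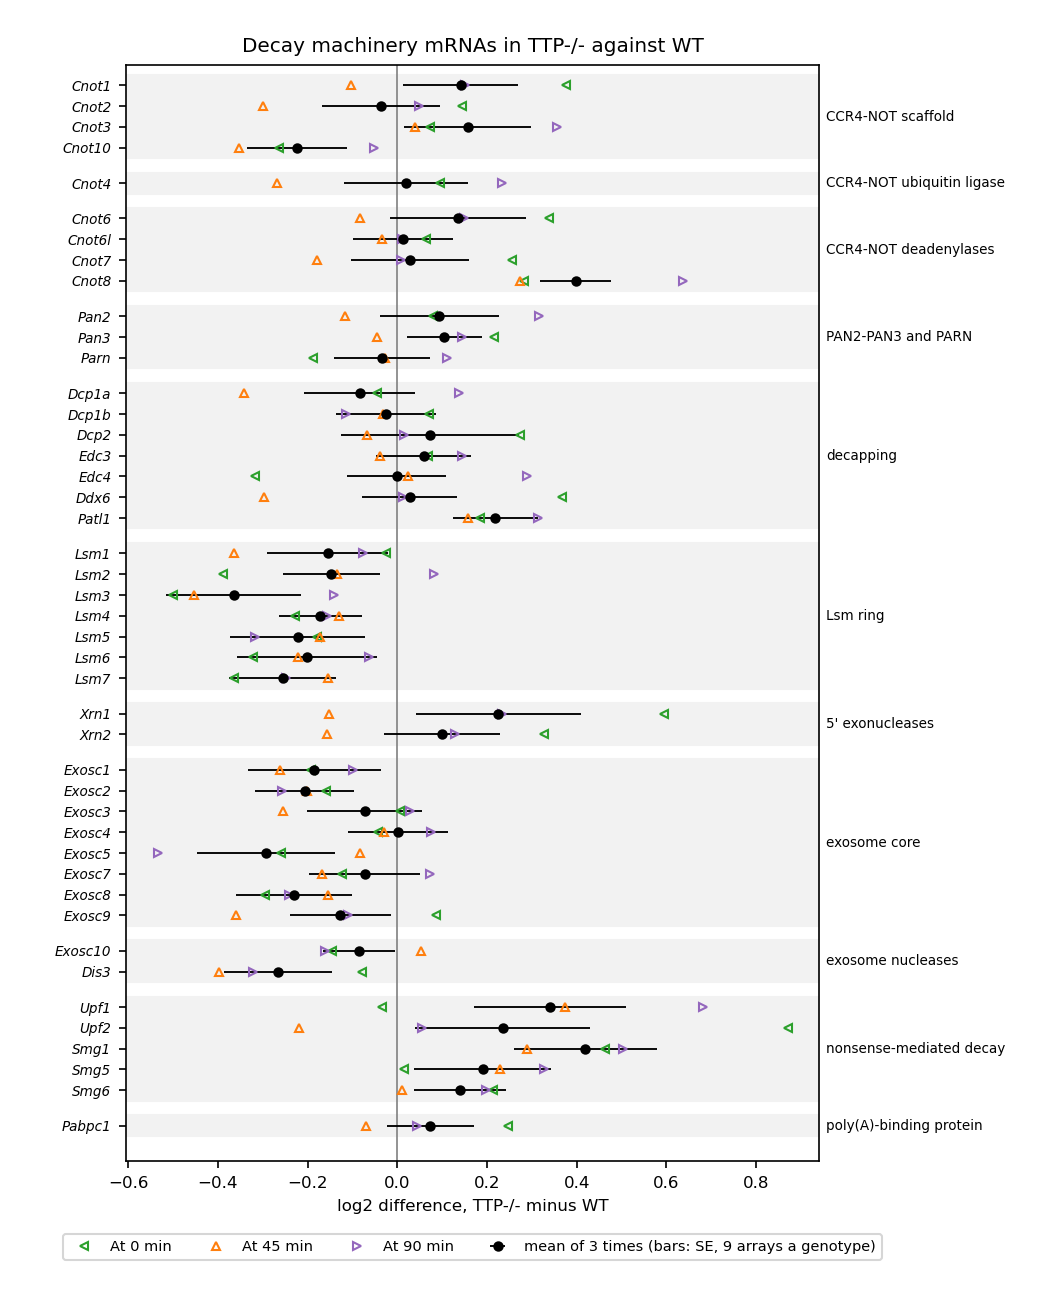
Log2 difference between TTP-/- and WT for the 44 decay genes, ordered by role, at 0, 45 and 90 min (open triangles) and averaged over the 3 times (black points with SE, 9 arrays a genotype). Cnot8 lies above 0 at each time, the 7 Lsm genes lie below 0 on average (all 7 with all arrays, 5 of 7 after centring on ribosomal protein genes), and the 5 nonsense-mediated decay genes lie above 0 on average.

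Over the whole list the genotypes did not differ in one direction, with 22 of the 44 estimates positive and 22 negative and a median of -0.00 beside 0.01 for all genes. At 0 min 1 was separated higher (Cnot8) and 2 lower (Edc4 and Lsm3), beside 3.15% and 7.14% of all genes. At 45 min 35 of 44 estimates were lower in TTP-/-, beside 52.9% of all genes, with a median of -0.13 beside -0.01. There the groups did not overlap for 3 genes higher and 4 lower, beside 5.94% and 6.91% of all genes, and limma called 0 of 44, beside 0.0195%. The unadjusted counts at 45 min were 0 higher and 0 lower, beside 1.77% and 2.21%. At 90 min 4 were separated higher and 1 lower, beside 6.47% and 3.25%, and limma again called 0 of 44, beside 0.146%, with 2 higher and 0 lower unadjusted, beside 4.06% and 1.73%.

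With all arrays weighted alike, no decay gene's change over time was called as different between the 2 genotypes. The decay difference, the change from 0 min in TTP-/- minus that in WT, was called for 0 of 44 at 45 min, beside 0.00975% of all genes, and for 0 of 44 at 90 min, beside 0.0195%. At an unadjusted p below 0.05 limma gave 0 higher and 2 lower at 45 min, beside 0.721% and 1.1%. It gave 1 higher and 0 lower at 90 min, beside 1.73% and 0.946%. Without WT replicate 3 at 0 min, 2 were called at 45 min, Upf2 (-1.62 ± 0.33) and Cnot1 (-0.86 ± 0.18), both with an adjusted p of 0.0468 and beside 0.78% of all genes, and 0 at 90 min. At 90 min with all arrays 23 differences were positive and 21 negative, with a median of 0.03 beside 0.04 for all genes. The highest were Upf1 (0.72 ± 0.41) and Edc4 (0.61 ± 0.27) and the lowest Upf2 (-0.81 ± 0.48) and Xrn1 (-0.36 ± 0.45), all with an adjusted p of 0.999. By replicate number Upf1 gave 0.66, 1.90 and -0.42, and Upf2 gave -0.92, -1.97 and 0.44, so replicate 3 had the opposite sign in both. For comparison, Tnf, whose mRNA tristetraprolin binds, had a decay difference of 3.79 at 90 min.

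**Figure D5:**
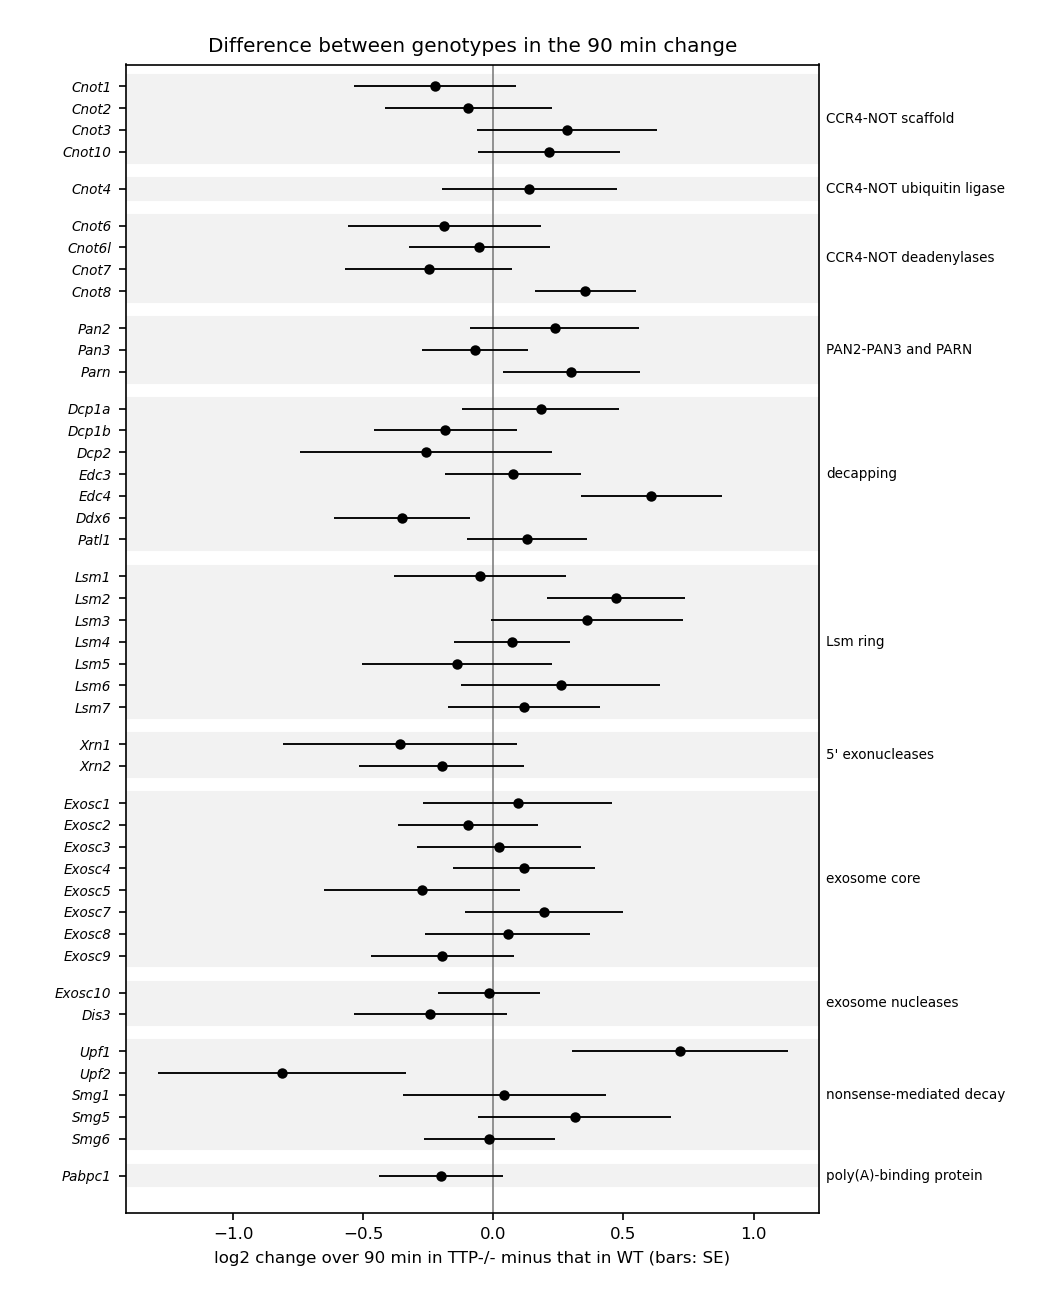
Difference between TTP-/- and WT in the log2 change over 90 min for the 44 decay genes, ordered by role; bars are SE of the limma fit. The points lie on both sides of 0, from Upf2 (-0.81) to Upf1 (0.72), and none was called with all arrays weighted alike.

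A further 57 genes that act around this machinery, such as other subunits, cofactors and RNA-binding regulators, were taken as the surrounding pathway. Of these, 51 were measured and 50 passed the dim limit. Over 90 min averaged over both genotypes, 0 rose and 2 fell, Smg8 by 0.95 ± 0.13 on the log2 scale (adjusted p = 0.000368, limma) and Pde12 by 0.64 ± 0.14 (adjusted p = 0.0227), beside 2.34% of all genes called and 2.28% called as a fall. SMG8 regulates the kinase SMG1, and PDE12 is a poly(A)-specific enzyme. Smg8 also fell in WT alone (-1.23 ± 0.18, adjusted p = 0.00118). At an unadjusted p below 0.05 the average held 1 higher and 9 lower of the 50, beside 1.68% and 8.33% of all genes. In WT at 90 min there were 1 higher and 6 lower, beside 2.17% and 7.25%. The other comparisons called none of the 50 by limma, with 0 to 2 higher and 0 to 3 lower at an unadjusted p below 0.05 in each, against the shares of all genes given above for each comparison.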

How the data were processed

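The deposited values are intensities, and their range shows that they are linear. RMA in Affymetrix Expression Console is named in the submitters' processing notes as the authors' software, with no version given in the sources used here. Log2 was computed here from the authors' deposited intensities, with no offset. The table has 25138 rows; the platform annotation gave 1 symbol for 21039, several for 1485 and no entry for 2614. Symbols were checked through RefSeq's gene table (GRCm38.p6), which changed 0 of them. The 84 rows whose gene identifier was not in that table kept the symbol of the platform annotation. The brightest row per symbol was kept, and a gene was tested if its brightest group reached 3.03, the median of row means.

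One model of group means over all 18 arrays was fitted (limma 3.58.1, R 4.3.3; lmFit, contrasts.fit and eBayes), with Benjamini-Hochberg adjustment within each comparison at 0.05. The procedure was tested on simulated data. The number of arrays limits the precision. The labels do not say that replicates came from separate animals, so the spread behind each p-value may be only technical. Same-numbered arrays deviated together, with correlations above 0.1 in every pair, between 0 and 45 min in WT (0.333 to 0.550), between 0 and both later times in TTP-/- (0.321 to 0.694) and between the genotypes at each time (0.156 to 0.651), but not between 0 and 90 min in WT (-0.287 to 0.424). The number was therefore read as pairing in the former only, and weakly so between the genotypes at 90 min. There 1 of 3 WT arrays and 2 of 3 TTP-/- arrays correlated best with their own number. In every group replicate 3 belongs to the lower series of numbers, so these correlations cannot tell pairing from that split. No list was tested as a set.

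The members and lists were chosen with earlier results of these data known. Values on every array are given for members called with or without the series block, catalytic members, the member with the largest mean 90 min change in each role, the highest and lowest decay differences, and Pabpc1, Upf1 and Smg1. Alternatives were other filters, 8 added before log2, the mean of rows, blocks, subsets of arrays, centring on 56 ribosomal protein or 12 housekeeping genes, array weights and another prior.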

Additional observations from a re-analysis of the deposited data

How the results depend on the processing

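The number of decay genes called stayed at 0 in TTP-/- at 45 and at 90 min under every alternative run, and no called change of a named gene turned its sign. The median of the list over 90 min did turn, from -0.07 to 0.06, within replicates 1 and 2. Shares of all genes called in the same fit follow each count. With the replicate block the counts were 3 between genotypes over all times (4.64%; 1 with no block), 1 in WT at 90 min (2.89%; 0 with no block) and 3 in the 90 min average (4.37%; 1 with no block), the last being Edc3, Exosc3 (adjusted p = 0.0299, limma) and Cnot8. At 0 and 90 min in WT, where the numbers do not pair the arrays, 1 of 3 arrays correlated best with its own number. The same held for 1 of 3 WT arrays set against TTP-/- at 90 min. With the series block the counts were 2 (4.82%), 1 (2.93%) and 2 (4.62%). Adding 8 before log2 gave 1 in WT at 90 min (1.14%) and 2 in the average (2.13%), the mean of rows gave 1 in WT at 90 min (1.25%), and no filter gave 2 in the average (1.19%). Centring on ribosomal protein genes gave 2 between genotypes (4.66%) and 0 in the average (2.25%), centring on housekeeping genes gave 0 between genotypes (1.32%), and the robust trended prior gave 0 in the average (2.35%). Within replicates 1 and 2 the counts were 2 in WT at 45 min (2.5%), 6 in WT at 90 min (13.4%), 2 in the average (5.34%), 6 between genotypes at 0 min (9.17%) and 3 over all times (5.82%). Array weights, whose estimation stopped before it converged and ranged from 0.159 to 9.04, gave 12 and 17 in WT at 45 and 90 min (20.6% and 38.9%), 7 in the average (15.3%), 15 and 11 between genotypes at 0 min and over all times (31.7% and 23.4%), and 9 and 4 for the decay differences at 45 and 90 min (9.71% and 9.73%). Without single arrays the counts ran from 0 to 3 in WT at 45 min (0.0292% to 2.6%) and 0 to 2 at 90 min (0.682% to 2.89%). They ran from 0 to 2 in the average (1.51% to 3.01%). Between genotypes they ran from 0 to 4 at 0 min (0.0% to 7.95%) and 1 to 3 over all times (0.77% to 4.86%). For the decay difference they ran from 0 to 2 at 45 min (0.00975% to 0.78%) and 0 to 0 at 90 min (0.00975% to 0.0292%). Without WT replicate 3 at 0 min, the counts were 3, 2, 1, 4, 3, 2 and 0 in that order (2.6%, 2.89%, 2.25%, 7.95%, 4.86%, 0.78% and 0.00975%). Without TTP-/- replicate 2 at 90 min, Cnot8 was called in the average (-0.40 ± 0.10, adjusted p = 0.0406, limma, beside 3.01%). Using 45 and 90 min alone for the genotype, an alternative added after seeing the data, called Cnot8 again (0.45 ± 0.10, adjusted p = 0.0435, limma, beside 0.634%). The cause of these shifts was not tested. Pan2, Parn, Exosc3 and Smg6 lie near the dim limit, which limits how far a fall can show. The same limit holds for Dcp1b, Exosc4, Exosc7 and Lsm1, with mean log2 intensities of 3.86, 3.79, 3.80 and 3.93. Their estimates enter the counts and medians of the decapping, exosome and Lsm genes.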

Other observations

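Several decay genes had more than 1 array row, and the dimmer rows did not always follow the brightest. The second row of Cnot8, with a mean log2 intensity of 3.48, had a TTP-/- minus WT difference over all times of 0.31 and a mean 90 min change of -0.23, the same directions as the row used (0.40 and -0.36). The second row of Exosc3 lay at 2.77, below the dim limit, and showed a 90 min change of 0.01. The second row of Cnot1 lay at 6.56 and showed a difference between genotypes of -0.02. The 3 rows of Lsm5 gave genotype differences of -0.22, -0.33 and 0.19, the last from a row at 1.92, below the dim limit. Their mean 90 min changes were 0.22, 0.13 and -0.33 in the same order, so that estimate depended on the row.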
